A study of Homo sapiens with 6 samples.

Results

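The genes described are 54 protein-coding genes of chromosome 21, measured in parental HCT116, a colon carcinoma line of human origin, and in HCT116 cells whose *ZKSCAN3* gene, which encodes a zinc finger transcription factor, had been targeted. The genes were taken by symbol from a table of 46427 genes. They were chosen because chromosome 21 genes are lower as a block in the knockout libraries, so the contrast between the genotypes served to choose them and is described here without a test of the members. Chromosome 21 genes that belong to other pathway groups, such as *APP* and *MX1*, are not among the 54 and are used as neighbours.

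Parental cells with wild-type *ZKSCAN3* (*ZK3*-WT) and homozygous *ZKSCAN3* knockout cells (*ZK3*-KO) were each sequenced as 3 biological replicates, and both were grown in DMEM with serum. CRISPR/Cas9 was used to remove the start codon in the first exon, and the methods describe puromycin selection of single-cell clones, so the knockout arm may be a single clone. Clone and genotype cannot be told apart in these libraries. DNA copy number was not measured in them, and fewer gene copies and less RNA per copy cannot be told apart from counts of RNA.

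Chromosome 21 is the smallest human autosome, and an extra copy of it causes Down syndrome. In cells that gain or lose a chromosome, the RNA of most of its genes follows the number of copies, while feedback control, other transcription changes and RNA turnover move single genes away from that level. The genes examined here include receptors for interferons, transcription factors, a chaperonin subunit, ribosome assembly factors, enzymes of purine and carbonyl metabolism, and a kinase, *DYRK1A*, which is dosage sensitive.

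The libraries held between 60827060 and 69739215 counted reads. Levels are given as CPM (reads scaled to library size with edgeR's TMM factors), always in the order of replicates 1, 2 and 3, with the *ZK3*-WT libraries first. *ZKSCAN3* itself measured 28.1, 23.4 and 19.8 CPM in *ZK3*-WT libraries and 25.4, 24.9 and 13.6 CPM in *ZK3*-KO libraries. Its mRNA level overlapped between the genotypes, and since loss of a start codon need not lower the mRNA, these values do not check the labels. *ZK3*-KO replicate 3 stood apart, with correlations of its log2 CPM across genes of 0.963 and 0.950 with the other *ZK3*-KO libraries, against 0.985 between those and 0.983 to 0.989 among *ZK3*-WT libraries. Of 8 colon epithelial markers, 6 were at 1 TPM (reads scaled to gene length and library size) or more in every library, *CDX1* was at 0 and *VIL1* had at most 7 reads. The summed level of the 8 was 3777 to 4837 TPM in *ZK3*-WT and 3474 to 5622 TPM in *ZK3*-KO libraries. Of 6 markers of other cell types only *COL1A1* (11.9 to 29.1 TPM) reached 1 TPM in every library, *PTPRC* and *CD3E* were at 0, and the sum was 17.4 to 21.8 TPM in *ZK3*-WT and 12.4 to 29.9 TPM in *ZK3*-KO libraries. The part of these markers in the results was not tested.

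Promoter sequences are shown first for members that lie head to head or that lay lowest, since neighbours that share a promoter region are compared below. The windows run from 250 bases before to 50 bases after a transcription start and come from RefSeq (GRCh38.p14), where 42 of the 54 members had a total of 72 windows. Capitals mark CCAAT and CGGAAG, the latter the core of sites for ETS family factors, on either strand, so that ATTGG and CTTCCG are also in capitals, and the *TTC3* window holds neither. The *TTC3* window (chr21:37073004-37073303, forward strand) overlaps a window of *PIGP* by 282 bases, the *SON* window (chr21:33542788-33543087, forward strand) overlaps one of *GART* by 248 bases, the *YBEY* window (chr21:46286092-46286391, forward strand) lies 230 bases from the window of *MCM3AP*, and the *TIAM1* window (chr21:31559038-31559337, reverse strand) belongs to the lowest member.
TTC3: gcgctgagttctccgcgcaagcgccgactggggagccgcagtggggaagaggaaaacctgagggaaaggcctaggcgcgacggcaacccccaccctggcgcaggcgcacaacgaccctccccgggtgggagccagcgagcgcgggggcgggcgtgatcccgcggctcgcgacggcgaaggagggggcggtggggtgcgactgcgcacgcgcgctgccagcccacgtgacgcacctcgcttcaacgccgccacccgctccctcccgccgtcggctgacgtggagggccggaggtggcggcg
SON: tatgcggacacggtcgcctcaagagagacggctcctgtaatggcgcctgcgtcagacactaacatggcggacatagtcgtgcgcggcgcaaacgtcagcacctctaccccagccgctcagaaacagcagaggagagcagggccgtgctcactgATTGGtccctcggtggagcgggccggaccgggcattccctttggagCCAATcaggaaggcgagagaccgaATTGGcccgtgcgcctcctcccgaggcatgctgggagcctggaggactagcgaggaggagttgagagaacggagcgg
YBEY: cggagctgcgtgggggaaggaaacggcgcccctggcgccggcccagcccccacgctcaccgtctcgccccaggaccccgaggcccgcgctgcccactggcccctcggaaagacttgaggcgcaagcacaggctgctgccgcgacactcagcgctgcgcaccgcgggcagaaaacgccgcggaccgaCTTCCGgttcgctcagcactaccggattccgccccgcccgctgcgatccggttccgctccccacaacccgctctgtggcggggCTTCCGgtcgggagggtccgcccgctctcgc
TIAM1: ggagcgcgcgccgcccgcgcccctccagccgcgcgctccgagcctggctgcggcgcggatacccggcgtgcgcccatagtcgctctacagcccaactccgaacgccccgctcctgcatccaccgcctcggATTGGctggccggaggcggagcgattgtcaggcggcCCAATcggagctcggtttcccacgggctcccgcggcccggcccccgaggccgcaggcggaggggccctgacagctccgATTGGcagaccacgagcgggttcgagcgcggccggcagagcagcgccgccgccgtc

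CGGAAG was found in 20 of the 72 windows (27.8%) and in 19.5% of all 35116 windows, CCAAT in 20 (27.8%) and 34.6%, and TATAAA in 9 (12.5%) and 11.5%, each on either strand and counted separately, so that matches of different motifs may share letters at their ends. The windows of members were richer in G and C (median 69.5% against 58.7%) and held a median of 29.5 CpG pairs against 14. A match of letters is not a bound site.

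Of the 54 members, 52 passed edgeR's expression filter. *CBR1*, a carbonyl reductase, had 0 reads in all 6 libraries, which allows at most 3 reads in each (counting error only). It lies inside the span of *SETD4* on the opposite strand, and how reads over both genes were assigned is not given in the sources used here. *HUNK*, a kinase, had at most 6 reads in a library. Among the 52 tested members, 43 had a log2 fold change below 0 in *ZK3*-KO cells, where 48.3% of all 18366 tested genes did. The median log2 fold change of the members was -0.38, which is 0.766 of the *ZK3*-WT level, and the quartiles were -0.56 and -0.07. Genes placed outside chromosome 21 had a median of 0.04 with quartiles of -0.26 and 0.30. The median of the members thus lay 0.42 below that of the rest of the genome on the log2 scale. Without *ZK3*-KO replicate 3 the median was -0.29 and 37 members lay below 0.

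The members spread around this block level with an interquartile range of 0.49. It was 0.56 for genes placed outside chromosome 21 and 0.82 for the 95 other chromosome 21 genes, which include long noncoding RNAs and pseudogenes. For the 63 protein-coding genes among these 95 it was 0.65. Of the 52 members, 25 lay within 0.25 and 41 within 0.5 of the median log2 fold change, while 5 lay below -1, 15 between -1 and -0.5, 23 between -0.5 and 0, and 9 above 0. The standard deviation across members was 0.40, against a median standard error of 0.20 for a member. In 23 members every *ZK3*-KO library lay below every *ZK3*-WT library (44.2%), where 13.8% of all tested genes did. No member had every *ZK3*-KO library above every *ZK3*-WT library, where 12.7% of all tested genes did. In edgeR's quasi-likelihood test over all genes, 2 members, *TIAM1* and *ETS2*, passed a false discovery rate (FDR) of 0.05, both lower, where 1.23% of all tested genes passed in that direction. With the replicate number as a block 4 members passed, where 2.51% of all tested genes did in either direction, and without *ZK3*-KO replicate 3, 19 passed, where 15.1% of all tested genes did. These shares describe genes that were chosen on the same contrast, and nothing is read from them.

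**Figure D1:**
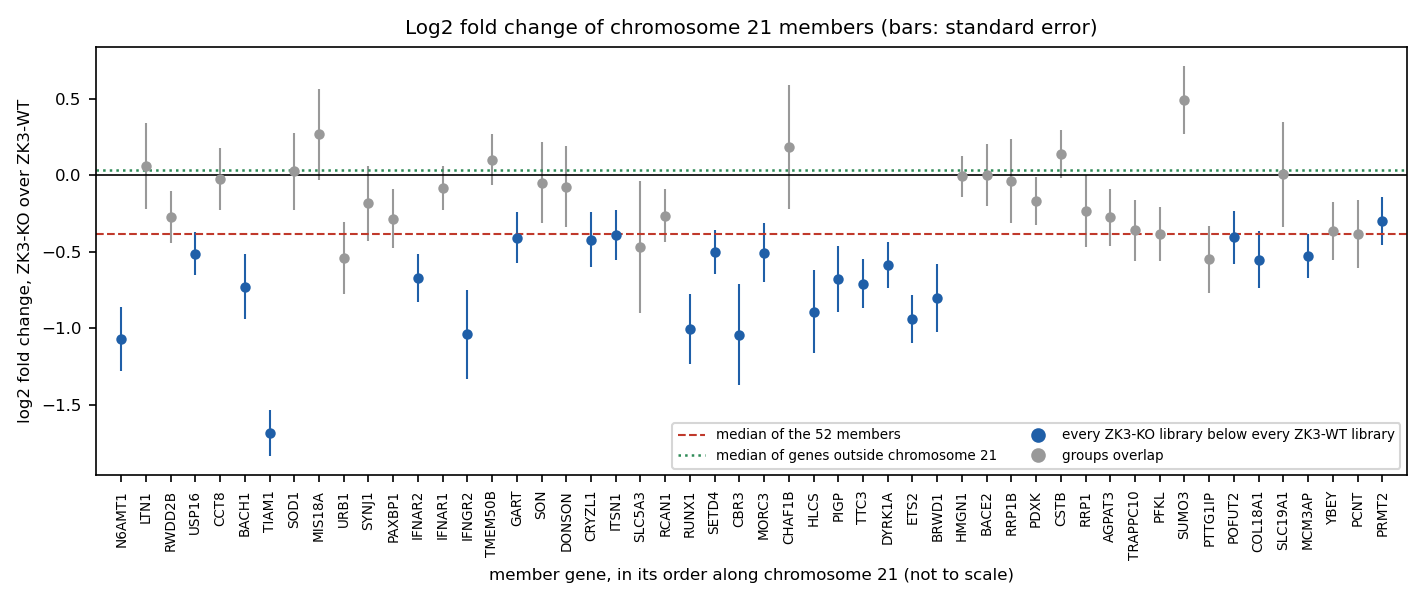
Log2 fold change of the 52 tested members in *ZK3*-KO over *ZK3*-WT cells (vertical axis, with standard error) in gene order along the chromosome (horizontal axis, not to scale). Blue points are the 23 members whose groups do not overlap, and the dashed and dotted lines are the medians of the members (-0.38) and of genes outside chromosome 21 (0.04).

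The members were lower in each of the *ZK3*-KO libraries taken alone. Relative to the mean of the *ZK3*-WT libraries, the members had a median log2 CPM of -0.03, 0.07 and -0.02 across *ZK3*-WT libraries but of -0.38, -0.25 and -0.51 across *ZK3*-KO libraries. The genes outside chromosome 21 had medians between -0.00424 and 0.0196 in all 6 libraries. In *ZK3*-KO replicates 1, 2 and 3, respectively, 37, 29 and 41 of the 52 members lay below all *ZK3*-WT libraries (71.2%, 55.8% and 78.8%), where 33.1%, 38.0% and 37.9% of all tested genes did. Above all *ZK3*-WT libraries lay 4, 11 and 1 of the members in *ZK3*-KO replicates 1, 2 and 3. Over all 18366 tested genes 6000, 6297 and 6989 did, a larger share in each library. Taking libraries of the same replicate number together, 37 members were lower in all 3 pairs, 6 in 2 pairs, 8 in 1 pair and 1 in no pair.

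**Figure D2:**
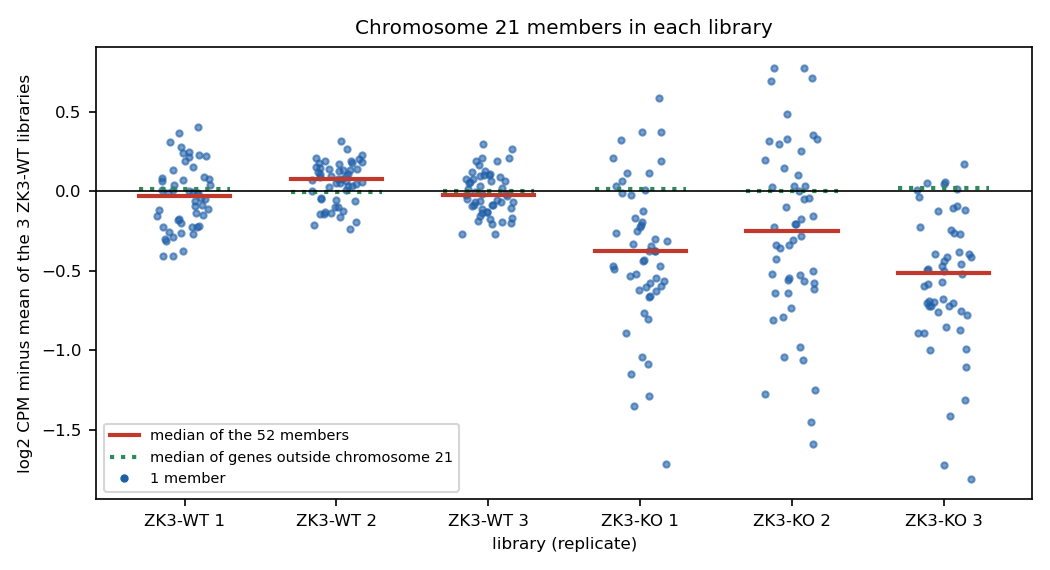
Each point is 1 of the 52 tested members in 1 library, as log2 CPM minus its mean in the 3 *ZK3*-WT libraries (vertical axis). Red lines are medians of the members (-0.38, -0.25 and -0.51 in *ZK3*-KO replicates 1, 2 and 3), and dotted lines are medians of genes outside chromosome 21.

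The pattern across members was more alike between *ZK3*-KO replicates 1 and 2 than between either of them and replicate 3. The log2 ratios of same-numbered pairs correlated across the 52 members with r = 0.80 between pairs 1 and 2, 0.44 between pairs 1 and 3 and 0.34 between pairs 2 and 3, a description across genes with no library shared between pairs. Of the 52 members, 30 were lower in *ZK3*-KO replicate 3 than in both other *ZK3*-KO libraries and 17 were higher than in both. Over all 18366 tested genes 7606 were lower and 7886 higher, so replicate 3 lay outside both other libraries for most tested genes as well. *SLC5A3*, a myo-inositol transporter, was the member furthest down in replicate 3, at 58.3, 79.9 and 20.7 CPM in *ZK3*-KO libraries, against 72.8, 86.9 and 60.0 CPM in *ZK3*-WT libraries. At the other end, *IFNGR2*, the second chain of the interferon gamma receptor, was at 22.7, 21.2 and 41.9 CPM in *ZK3*-KO libraries and so lay highest in replicate 3. Single members therefore depend on replicate 3, whereas 36 of the 52 stayed below 0 and 2 (*CSTB* and *SUMO3*) above 0 whichever of the 6 libraries was left out.

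Chromosome 21 had the lowest median log2 fold change of the 22 autosomes and chromosome X. Its 147 tested genes had a median of -0.39, with 78.9% below 0. The next lowest was chromosome 13, with a median of -0.06 over 281 genes, and chromosome 22, also small and acrocentric, had a median of 0.02 over 443 genes. Chromosome 14 lay at the other end with 0.51 over 523 genes. Per library, the chromosome 14 median was 0.48, 0.48 and 0.39 in *ZK3*-KO replicates 1, 2 and 3 relative to the *ZK3*-WT mean, so that chromosomes 14 and 21 lay on opposite sides of the *ZK3*-WT mean in each *ZK3*-KO library.

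**Figure D3:**
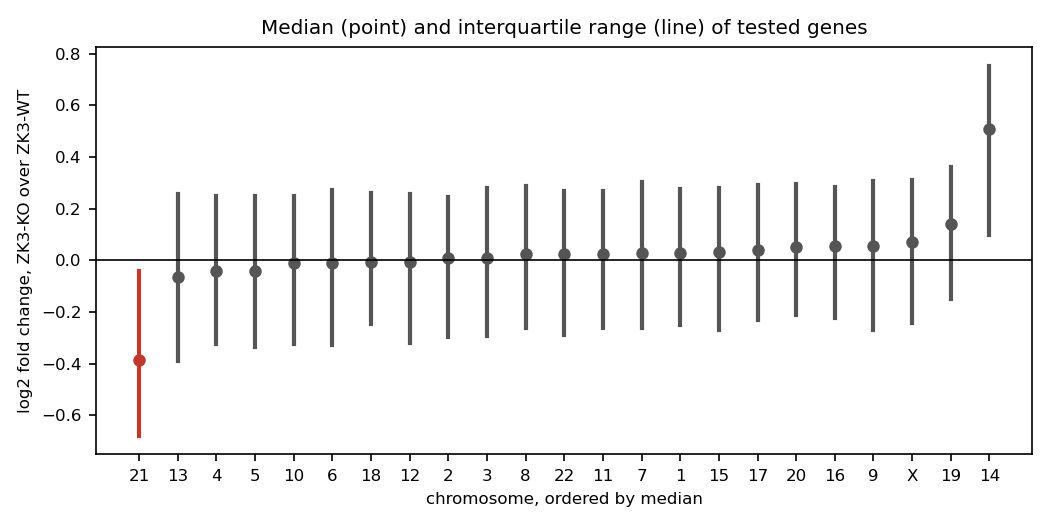
Median (points) and interquartile range (lines) of the log2 fold change in *ZK3*-KO over *ZK3*-WT cells for the tested genes of each chromosome, ordered by median. Chromosome 21 (red) is lowest at -0.39 and chromosome 14 is highest at 0.51, and the others lie between -0.06 and 0.14.

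Chromosome 21 genes outside the 54 had a similar median, and the difference from the members was not tested. The 95 such genes that passed the filter had a median of -0.39, and the 63 protein-coding ones among them one of -0.35. Relative to the *ZK3*-WT mean the medians of the 95 were -0.43, -0.41 and -0.34 in *ZK3*-KO replicates 1, 2 and 3. Replicate 3 was thus the least low for them and the lowest for the members. The lowest was *MX1*, an interferon-induced antiviral GTPase, with 2.96, 4.76 and 3.75 CPM in *ZK3*-WT and 0.186, 0.303 and 0.469 CPM in *ZK3*-KO libraries (log2 fold change -3.58). *ABCG1*, a sterol exporter, had 18.7, 16.8 and 16.7 CPM and 3.40, 1.77 and 3.96 CPM, a log2 fold change of -2.51. *APP*, the amyloid precursor protein, was at 679.7, 772 and 695 CPM and 397, 366 and 414 CPM, a log2 fold change of -0.87. Of the 95, 4 had every *ZK3*-KO library above every *ZK3*-WT library, where 12.7% of all tested genes did, namely *NRIP1*, *JAM2*, *PKNOX1* and the pseudogene *EXOSC3P1*. *NRIP1*, a nuclear receptor corepressor, was at 30.7, 31.2 and 28.3 CPM in *ZK3*-WT and 62.8, 91.7 and 32.8 CPM in *ZK3*-KO libraries, and *JAM2*, a junction protein with 13 to 53 reads a library, was at 0.239, 0.185 and 0.286 and 0.823, 0.534 and 0.437 CPM, in both cases above all *ZK3*-WT libraries.

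Along the chromosome (GRCh37, by gene start), the median was below 0 in every stretch that holds members. The 20 members between 30 and 35 Mb had a median log2 fold change of -0.28, the 12 between 35 and 40 Mb of -0.55, the 4 between 40 and 45 Mb of -0.40 and the 16 between 45 and 50 Mb of -0.33. In the 35 to 40 Mb stretch, from *ITSN1* to *DYRK1A*, 9 of 12 members had every *ZK3*-KO library below every *ZK3*-WT library (13.8% of all tested genes), and its library medians were -0.59, -0.56 and -0.70 in *ZK3*-KO replicates 1, 2 and 3. They were -0.20, -0.11 and -0.69 in the 30 to 35 Mb stretch, where replicate 3 lay lowest, -0.30, -0.31 and -0.57 in the 40 to 45 Mb stretch, and -0.38, -0.22 and -0.19 in the 45 to 50 Mb stretch. Counting all protein-coding genes, members or not, the medians were -0.27 (27 genes), -0.52 (18 genes), -0.42 (26 genes) and -0.30 (33 genes) in these stretches. Nearer the centromere, where no member lies, 6 protein-coding genes between 15 and 20 Mb had a median of -0.20 and 5 between 25 and 30 Mb one of 0.06. Spearman's rho between log2 fold change and position was 0.0614 over the members, and that with expression level was 0.0110 (n = 52 genes that share their libraries). Adjacent members differed by a median of 0.35 and all pairs of members by 0.38, so neighbours were about as unlike as genes far apart.

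Of the members, 3 pairs lie head to head, and their values are set side by side here without a test. *TTC3*, a ubiquitin ligase with TPR repeats, and *PIGP*, a subunit of the enzyme that starts GPI anchors, begin 56 bases apart on opposite strands. *TTC3* was at 252, 317 and 258 CPM in *ZK3*-WT and 161, 183 and 162 CPM in *ZK3*-KO libraries, and *PIGP* at 13.4, 13.3 and 16.2 and 9.35, 6.81 and 10.6 CPM. The groups of both were separate, with log2 fold changes of -0.71 ± 0.16 and -0.68 ± 0.21 (standard error). *YBEY*, a ribonuclease homologue of bacterial ribosome maturation, and *MCM3AP*, the scaffold of an mRNA export complex, begin 45 bases apart in the GRCh37 annotation. Their RefSeq windows lie 230 bases apart, so these windows and the annotated starts do not match. The log2 fold changes were -0.36 ± 0.19 for *YBEY* and -0.53 ± 0.14 for *MCM3AP*. *SON*, a splicing cofactor, and *GART* differed more, with -0.05 ± 0.27 and -0.41 ± 0.17, but these values overlapped within their standard errors. *RRP1B* and *PCNT* also lie head to head, each with a gene that is no member. *RRP1B* and *HSF2BP* begin 72 bases apart, with log2 fold changes of -0.04 ± 0.27 and -0.88 ± 0.38. *HSF2BP* had only 31 to 84 reads a library. *PCNT* and *C21orf58* begin 249 bases apart, with -0.38 ± 0.22 and 0.33 ± 0.37. These differences of 0.84 and 0.72 were larger than that within any of the 3 pairs of members. With so few pairs, this is a description only.

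Of the 3 members that encode interferon receptor chains, 2 were separate between the genotypes. Interferon alpha and beta bind *IFNAR1* with *IFNAR2*, and *IFNGR2* joins *IFNGR1* in the receptor of interferon gamma. They lie side by side with *IL10RB*, *IFNAR2* from 34577587 to 34637980, *IFNAR1* from 34696692 to 34732170 and *IFNGR2* from 34775719 to 34851655 on the forward strand of chromosome 21 (GRCh37). *IFNAR1* was at 58.5, 62.3 and 55.0 CPM in *ZK3*-WT and 58.0, 59.8 and 48.5 CPM in *ZK3*-KO libraries, with overlapping groups and a log2 fold change of -0.08 ± 0.14. *IFNAR2* was at 30.9, 30.6 and 28.8 and 19.4, 21.2 and 16.2 CPM, a log2 fold change of -0.67 ± 0.16, with every *ZK3*-KO library lower. *IFNGR2* was at 47.0, 61.9 and 67.2 CPM in *ZK3*-WT libraries and had a log2 fold change of -1.04 ± 0.29 (-1.42 without *ZK3*-KO replicate 3). It overlaps *TMEM50B*, a membrane protein gene on the opposite strand, which was at 32.5, 28.6 and 23.1 and 31.7, 29.8 and 29.0 CPM, a log2 fold change of 0.10. *IL10RB*, the shared chain of interleukin-10 type receptors and no member, was at 31.6, 25.2 and 25.2 and 22.5, 18.6 and 29.8 CPM.

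The 11 members with roles in transcription and chromatin had a median log2 fold change of -0.50, 10 lay below 0 (48.3% of all tested genes) and 8 had every *ZK3*-KO library below every *ZK3*-WT library (13.8% of all tested genes). These shares over all genes also apply to the counts of the other role groups. *RUNX1*, a transcription factor of blood and epithelial cells, was at 74.6, 109.9 and 119 CPM in *ZK3*-WT and 48.2, 41.7 and 61.3 CPM in *ZK3*-KO libraries, a log2 fold change of -1.01 ± 0.23. *ETS2*, an ETS family factor, was at 77.4, 83.0 and 73.3 and 35.1, 39.4 and 47.2 CPM (-0.94 ± 0.16). *BACH1*, which represses heme oxygenase, was at 37.4, 53.3 and 47.6 and 31.5, 31.0 and 21.2 CPM (-0.73 ± 0.21). All 3 were separate, and *BACH1* was lowest in *ZK3*-KO replicate 3 whereas *RUNX1* and *ETS2* were highest there. *N6AMT1*, a methyltransferase that acts with TRMT112 on a translation release factor, was at 15.6, 21.6 and 15.4 and 7.08, 8.41 and 9.58 CPM (-1.07 ± 0.21). *HMGN1*, a nucleosome-binding protein, stayed near its parental level with 327, 296 and 305 CPM in *ZK3*-WT and 303, 309 and 312 CPM in *ZK3*-KO libraries, a log2 fold change of -0.0054 ± 0.14. *CHAF1B*, a subunit of the CAF-1 histone chaperone, was at 41.4, 30.5 and 29.6 and 41.7, 57.1 and 16.7 CPM and had one of 0.19 ± 0.40, with *ZK3*-KO replicates 2 and 3 at opposite ends. *BRWD1*, *MORC3*, *SETD4*, *PRMT2* and *PAXBP1* lay between -0.80 and -0.28.

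The 6 members of ribosome assembly and RNA processing had log2 fold changes below 0, with a median of -0.30, those of *SON* and *RRP1B* being smaller than their standard errors. Of the 6, 1, *MCM3AP*, was separate, at 149, 165 and 170.3 CPM in *ZK3*-WT and 102, 119.9 and 115 CPM in *ZK3*-KO libraries. *SON* was at 404, 401 and 359 and 396, 495 and 235 CPM, and *RRP1B*, a nucleolar protein, at 117, 149 and 146 and 119, 190.3 and 91.5 CPM, both with their highest value in *ZK3*-KO replicate 2 and their lowest in replicate 3. Without *ZK3*-KO replicate 3 their log2 fold changes were 0.21 and 0.18. *RRP1B* had a log2 fold change of -0.04 ± 0.27, while *URB1*, a 60S assembly factor, and *RRP1* had -0.54 and -0.23.

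In the group of protein folding, ubiquitin and protease genes, 3 of 7 lay above 0 and the median was -0.02. *CCT8*, a subunit of the TRiC chaperonin that folds actin and tubulin, was at 434, 359 and 382 CPM in *ZK3*-WT and 422, 447 and 288 CPM in *ZK3*-KO libraries (-0.02 ± 0.20). *USP16*, a histone H2A deubiquitinase, was at 77.0, 90.7 and 95.6 and 62.9, 60.9 and 60.8 CPM (-0.51 ± 0.14), with separate groups and close *ZK3*-KO libraries. *SUMO3*, a ubiquitin-like modifier, from 46225532 to 46238694 on the reverse strand, was the highest member, at 34.7, 26.5 and 27.1 CPM in *ZK3*-WT and 43.9, 50.05 and 30.1 CPM in *ZK3*-KO libraries. Its log2 fold change was 0.49 ± 0.22, and its groups overlapped through *ZK3*-KO replicate 3. *CSTB*, the protease inhibitor cystatin B, was at 82.0, 80.3 and 86.4 and 76.0, 104 and 93.4 CPM (0.14 ± 0.16). *LTN1*, the ubiquitin ligase of stalled ribosomes, was at 41.4, 47.0 and 40.0 and 55.3, 53.0 and 25.8 CPM (0.06 ± 0.28), above all *ZK3*-WT libraries in *ZK3*-KO replicates 1 and 2 and below them in replicate 3. *RWDD2B* had a log2 fold change of -0.27.

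The 3 members of cell division and replication overlapped between the genotypes. *PCNT*, pericentrin of the centrosome, was at 107, 83.7 and 92.1 CPM in *ZK3*-WT and 78.3, 87.5 and 51.2 CPM in *ZK3*-KO libraries (-0.38 ± 0.22). *MIS18A*, which licenses centromeres for CENP-A, was at 27.5, 21.4 and 22.6 and 30.6, 38.7 and 16.8 CPM (0.27 ± 0.30). *DONSON*, a replication factor that overlaps *SON* by 17940 bases on the opposite strand, had a log2 fold change of -0.07. In *MIS18A* and *DONSON*, *ZK3*-KO replicate 2 was the highest of the 6 libraries and replicate 3 the lowest.

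Metabolic enzymes had a median of -0.41 over 7 tested members, of which 6 lay below 0. *GART*, a trifunctional enzyme of purine synthesis, was at 255, 311 and 333 CPM in *ZK3*-WT and 219.6, 207 and 251 CPM in *ZK3*-KO libraries, with separate groups. *SOD1*, cytosolic superoxide dismutase and the member with the highest level in *ZK3*-WT cells (462 ± 101 TPM, SD, n = 3), was at 249, 163 and 176 and 223, 236 and 140.2 CPM, a log2 fold change of 0.03 ± 0.25. *CCT8* followed at 444 ± 36.1 TPM and *HMGN1* at 355 ± 27.6 TPM (SD, n = 3 each), and within their SD the level of *SOD1* overlapped both others, while those of *CCT8* and *HMGN1* did not overlap. The log2 fold change of each of the 3 was smaller than its standard error. *PFKL*, liver phosphofructokinase, was at 195, 144 and 166 and 144, 132 and 110.4 CPM (-0.39 ± 0.18), overlapping by 1 library. *HLCS*, which attaches biotin to carboxylases, was at 66.4, 98.5 and 98.4 and 40.7, 35.6 and 65.7 CPM (-0.89 ± 0.27). *CBR3*, the neighbouring carbonyl reductase of *CBR1*, was weakly expressed, with 35 to 130 reads a library, at 2.07, 1.36 and 1.34 and 0.823, 0.923 and 0.566 CPM (-1.04 ± 0.33). *CRYZL1* had a log2 fold change of -0.42 with separate groups, and *PDXK*, pyridoxal kinase, one of -0.17 with overlapping groups.

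*TIAM1*, an activator of the GTPase RAC1, was the lowest of all members. The gene (NCBI Gene 7074) lies from 32490734 to 32932290 on the reverse strand. It was at 179, 224 and 189.9 CPM in *ZK3*-WT and 59.8, 65.3 and 59.6 CPM in *ZK3*-KO libraries. The *ZK3*-KO libraries lay close to each other and far below the *ZK3*-WT libraries, with a log2 fold change of -1.68 ± 0.15, between -1.75 and -1.58 whichever library was left out. *DYRK1A* was at 86.3, 110.0 and 108 and 63.6, 68.0 and 71.0 CPM (-0.59 ± 0.15), also separate. *RCAN1*, an inhibitor of calcineurin, was at 17.9, 24.5 and 23.0 and 16.6, 19.4 and 18.5 CPM (-0.26 ± 0.17), and its groups overlapped.

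Membrane traffic and lipid genes had a median of -0.32 over 6 members and those of transport, glycosylation, surface and matrix one of -0.44 over 6. *ITSN1*, an endocytic scaffold, was at 68.8, 68.7 and 64.0 CPM in *ZK3*-WT and 54.5, 58.1 and 41.3 CPM in *ZK3*-KO libraries (-0.39 ± 0.16), and it was the only separate gene of its group. *COL18A1*, the collagen that gives endostatin, was at 118, 152 and 145 and 89.4, 79.2 and 115 CPM (-0.55 ± 0.19), and *POFUT2*, a protein fucosyltransferase, had -0.40, both separate, as was *PIGP* above. *BACE2*, an aspartyl protease, was at 30.8, 31.8 and 25.6 and 31.7, 34.8 and 21.96 CPM (0.0037 ± 0.21). *SLC19A1*, the reduced folate carrier, was at 33.3, 44.7 and 48.1 and 31.9, 67.0 and 27.7 CPM (0.0064 ± 0.34), with *ZK3*-KO replicate 2 the highest library, and without that replicate its log2 fold change was -0.50. The rest of both groups, *SYNJ1*, *TRAPPC10*, *AGPAT3*, *PTTG1IP* and *SLC5A3*, lay between -0.55 and -0.18 with overlapping groups, and *TMEM50B*, given above beside *IFNGR2*, lay at 0.10.

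**Figure D4:**
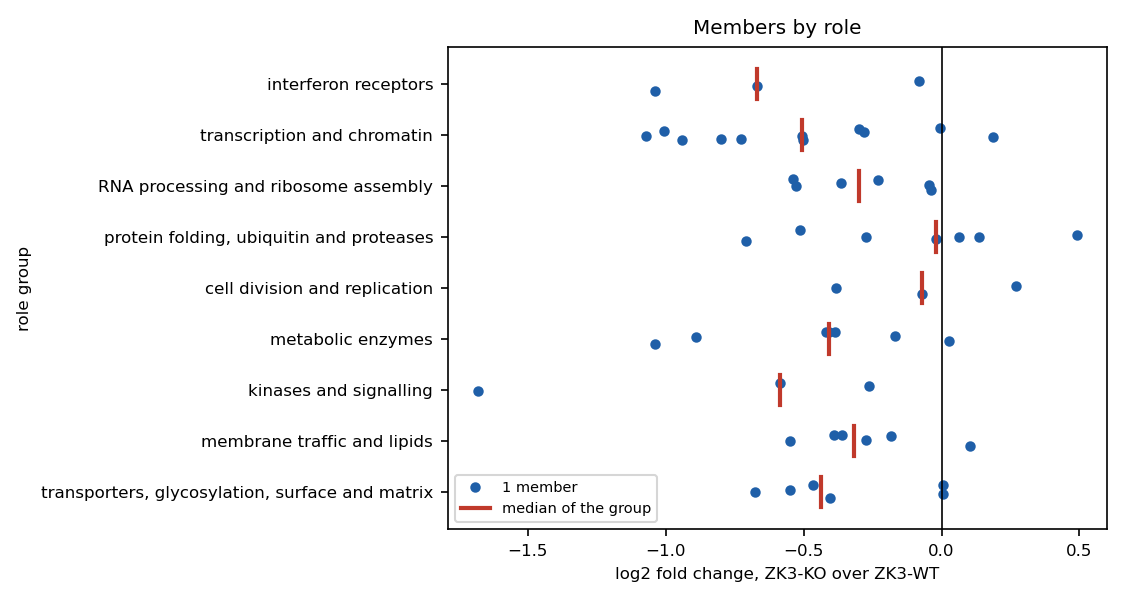
Log2 fold change in *ZK3*-KO over *ZK3*-WT cells (horizontal axis) of the 52 tested members by role (vertical axis), with the median of each group in red. Transcription and chromatin genes have a median of -0.50 and protein folding, ubiquitin and protease genes one of -0.02, and *TIAM1* is the lowest point.

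Partner genes encoded on other chromosomes did not enter the choice of members, and they were tested. The list was drawn up with earlier results of these data known, so it is not an independent set. A list of 51 such genes holds subunits, cofactors and pathway enzymes that work with 17 of the tested members, 5 of them on chromosome 14. All 51 passed the expression filter, and their median log2 fold change was 0.23. Of them 33 lay above 0, where 9488 of all 18366 tested genes did. Relative to the *ZK3*-WT mean their medians were 0.10, -0.06 and 0.01 in *ZK3*-WT and 0.19, 0.26 and 0.02 in *ZK3*-KO libraries. *ZK3*-KO replicate 3 thus lay within the *ZK3*-WT range. Without *ZK3*-KO replicate 2 the median log2 fold change was 0.14. In edgeR's quasi-likelihood test 1 of the 51 passed an FDR of 0.05 (2.05% of all tested genes passed), and 10 had an unadjusted p-value under 0.05, where 18.4% of all tested genes did. *IRF9*, a transcription factor of the interferon response on chromosome 14, was the lowest partner gene, at 31.3, 24.8 and 28.6 and 7.61, 5.80 and 13.8 CPM, with a log2 fold change of -1.64 and an FDR of 0.0532 from edgeR's test. With the replicate block *IRF9* passed (FDR 0.0249 from edgeR's test), so that 2 partner genes were called, and with 1 library left out between 0 and 18 were, the highest count being that without *ZK3*-KO replicate 3, where 15.1% of all tested genes were called. Every *ZK3*-KO library lay below every *ZK3*-WT library for *IRF9*.

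Set beside their partners, 15 of the 17 members lay below the median log2 fold change of their partners, with a median difference of -0.55 over all 17. The lowest difference was that of *N6AMT1* from *TRMT112*, -1.48. The 7 subunits of the TRiC chaperonin on other chromosomes (*TCP1*, *CCT2*, *CCT3*, *CCT4*, *CCT5*, *CCT6A* and *CCT7*) had log2 fold changes between 0.38 and 0.59, all above *CCT8*. Subtracting their median in each library left *CCT8* at 0.02, -0.01 and -0.04 (*ZK3*-WT) and at -0.36, -0.55 and -0.52 (*ZK3*-KO). Relative to its partners *CCT8* was thus lower in every *ZK3*-KO library, although its own groups overlapped. *TRAPPC10*, of the TRAPP II tethering complex, differed by -0.71 from the median of 7 partners, with differences of -0.30, 0.12 and 0.08 by *ZK3*-WT library and of -0.62, -0.19 and -1.16 by *ZK3*-KO library, so that *ZK3*-KO replicate 2 lay within the *ZK3*-WT range. *GART* differed by -0.68 from the median of 5 other enzymes of purine synthesis, but by library the differences were -0.68, -0.94 and 0.17 in *ZK3*-KO replicates 1, 2 and 3, so that replicate 3 went the other way. *PIGP* differed by -0.64 from the median of 5 partners, by 0.05, -0.04 and 0.12 in *ZK3*-WT libraries and by -0.66, -0.89 and -0.73 in *ZK3*-KO libraries. The exceptions were *IFNAR1*, 0.41 above the median of 7 interferon signalling genes, and *SUMO3*. These differences contain the contrast that chose the members and were not tested.

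**Figure D5:**
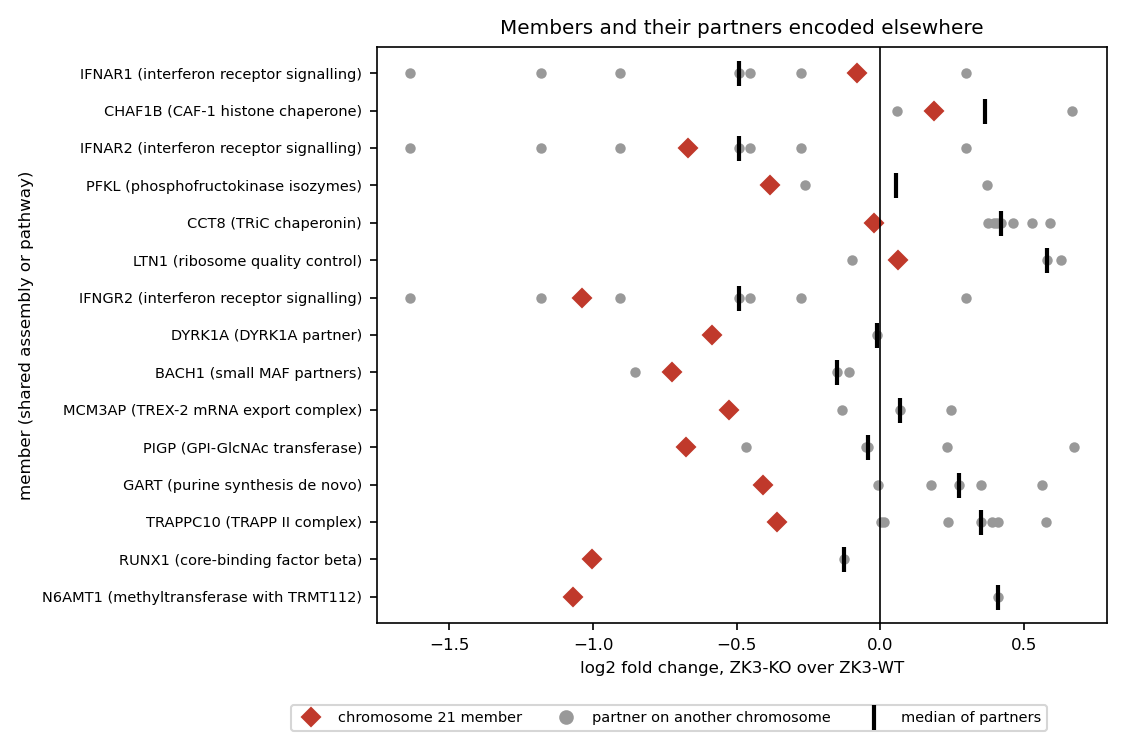
Log2 fold change in *ZK3*-KO over *ZK3*-WT cells (horizontal axis) of 15 members (red diamonds) and of their partner genes on other chromosomes (grey points, median as a black bar), one assembly or pathway per line. Of the 17 members with partners, *SUMO3* and *MIS18A* are not drawn. *SUMO3* lay 0.23 above the median of its partners and *MIS18A* differed from that of its partners by -0.11. In every line shown but that of *IFNAR1* the member lies left of the bar, and all 7 TRiC partners of *CCT8* lie right of *CCT8*.

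Some members share sequence space with another gene. Of the 54, 18 overlap another protein-coding gene of chromosome 21, among them *IFNGR2* with *TMEM50B*, *SON* with *GART* and *DONSON*, *CRYZL1* with *ITSN1*, *COL18A1* with *SLC19A1*, and on the same strand *MORC3* with *CHAF1B* and *SLC5A3* with *MRPS6*. The libraries were stranded, and the strand setting of the count is not given in the sources used here, so values of these genes may hold reads of the other gene.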

How the data were processed

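RNA of 3 *ZK3*-WT and 3 *ZK3*-KO samples was sequenced by the authors as 150 bp paired-end stranded mRNA libraries. Their methods and processing notes name Bowtie 2 (2.2.5) and hg19 (GRCh37). The authors deposited read counts per gene without normalization, FPKM values and TPM values. Counts were used for all tests, TPM for levels between genes and 1 alternative, and FPKM not at all. The table lists NCBI Gene identifiers, and column names matched the labels of all 6 libraries. The methods call the replicates biological, and p-values measure the spread between these libraries, not between knockout clones. No library was a copy of another (chi-square per degree of freedom of 41.5 or more within a group, using genes with 20 reads or more).

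Counts were filtered with filterByExpr (18366 genes), normalized with TMM and compared between genotypes with edgeR 4.0.16 in R 4.3.3 (quasi-likelihood test, all 6 libraries, genotype as the only factor), with Benjamini-Hochberg adjustment over all genes at 0.05. Log2 CPM used a prior count of 2. Gene positions came from a GENCODE annotation lifted to GRCh37, matched by symbol (15904 tested genes) or NCBI identifier (512), which placed 89.4% of tested genes. The study modelled TPM values with an ANOVA, for which limma 3.58.1 on log2(TPM + 1) stood in as an alternative. The others were DESeq2 1.42.0, library totals, upper-quartile factors, TMM factors without chromosomes 14 and 21, 2 filters (at least 1 read in all, and at least 10 reads in every library), a replicate block, and each library left out. The members, role groups, partner list and named genes were chosen with earlier results of these data known. Named genes were a fixed set of members, every member over 0.5 from the median of the members or above 0, and the called, lowest and highest partner genes. Results of some partner genes are not reported here. Other members and neighbours were named after their values were seen. *ZK3*-WT and *ZK3*-KO libraries of the same replicate number deviated together across genes (correlations of 0.294, 0.112 and 0.449 for numbers 1, 2 and 3), so the numbers were taken to pair the libraries in the block. *ZK3*-KO replicate 2 correlated more with *ZK3*-WT replicate 1 (0.209) than with *ZK3*-WT replicate 2, so the pairing is uncertain for number 2. The scripts were tested on simulated counts for this comparison, where edgeR called 149 of 18009 genes with 8 false, recovering all 100 4-fold and 41 of 100 2-fold changes.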

Additional observations from a re-analysis of the deposited data

How the results depend on the processing

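The median log2 fold change of the members lay between -0.50 and -0.29 in every alternative, and relative to genes outside chromosome 21 between -0.46 and -0.29. The weakest of both was without *ZK3*-KO replicate 3, and the members' count below 0 ran from 37 (without *ZK3*-KO replicate 3) to 49. The linear model on log2(TPM + 1) moved the median of the members to -0.50 and that of the partner genes to 0.053, while the median of genes outside chromosome 21 moved to -0.08, a shift of all genes. The median of the partner genes (0.23) was 0.14 with library totals alone and lay between 0.14 and 0.25 with 1 library left out. Called genes numbered 376, 1506 with DESeq2 and 461 with the replicate block, and between 49 and 2858 with 1 library left out (2858 without *ZK3*-KO replicate 3). Called partner genes numbered 1, 5 with DESeq2, 2 with library totals alone, 3 with the linear model, 2 with the replicate block, and between 0 and 18 with 1 library left out. The replicate block changed no other partner call named here than that of *IRF9*. In counts simulated at the depth of these libraries 41 of 100 2-fold changes were called, and smaller changes were not simulated. The simulation gave all 6 libraries the same spread and held no outlying library such as *ZK3*-KO replicate 3, so this share may not hold for these data. The causes were not tested.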

Other observations

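*CBR1* was listed at 0 reads in all 6 libraries, while its neighbour *CBR3* had 35 to 130 reads and *SETD4*, which spans it on the opposite strand, had 1036 to 1768 reads.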
